A study of Homo sapiens with 6 samples.

Results

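The tetraspanins are a family of small membrane proteins, and their transcripts were measured here in PC3 cells with normal and with reduced paxillin. Members were taken by name: every gene in the table called TSPAN followed only by digits, plus *CD9*, *CD37*, *CD53*, *CD63*, *CD81*, *CD82*, *CD151*, *UPK1A*, *UPK1B*, *PRPH2* and *ROM1*. This gave 33 of the 23285 genes listed. PC3 is an established prostate cancer line from a bone metastasis that lacks a working androgen receptor response, here grown in RPMI medium with serum. The cells were transfected with siRNA, non-specific in the control group and directed at paxillin in the other, and RNA was taken 72 h later. There were 3 libraries per group, numbered as replicates 1, 2 and 3. The labels do not tell whether separate cultures stand behind these numbers. All p-values here therefore refer to the spread among these libraries, and that spread may be technical.

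A tetraspanin crosses the membrane several times and carries a large outer loop through which it binds other membrane proteins in cis. Through such contacts tetraspanins gather integrins, immunoglobulin-type receptors and metalloproteases into shared patches of membrane, and they steer the traffic of their partners through endosomes. Several of them are standard marker proteins of extracellular vesicles. Paxillin, the product of *PXN*, sits on the inner side of focal adhesions, where integrins meet the actin cytoskeleton, and some of those integrins are also tetraspanin partners.

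The estimated counts, which are scaled values, summed to between 25252317 and 30394729 per library. Depth in single reads recovered from them differed more, and replicate 3 was the shallowest of both groups, since a read there was worth 1.37 and 1.26 estimated counts against 0.824 to 0.926 in the other libraries. *PXN* itself was at 718 to 854 CPM (counts relative to library size, scaled between libraries by TMM factors) with non-specific siRNA and at 55.7 to 91.7 CPM with paxillin siRNA. It was highest in replicate 3 of the paxillin siRNA group. This was a fitted log2 difference of -3.54 ± 0.23 (SE; edgeR, adjusted p = 0.00613). The epithelial keratins *KRT8* and *KRT18* were at 171 to 320 CPM in all libraries. The 2 other simple epithelial markers, *EPCAM* and *CDH1*, were lower in level and differed between the groups. *EPCAM* was at 5.91 to 7.54 CPM with non-specific siRNA and at 22.4 to 76.8 CPM with paxillin siRNA (edgeR adjusted p = 0.0337). *CDH1* was at 6.65 to 18.7 and 44.2 to 66.0 CPM (edgeR adjusted p = 0.0496). The leukocyte gene *PTPRC* was at or below 0.108 CPM. *KLK3*, a target of the androgen receptor, was at or below 0.0356 CPM. In bulk RNA, fewer cells of a type and less RNA per cell cannot be told apart. Markers of other cell types differed between the groups in part, and their part in the results was not tested. The 8 leukocyte markers summed to 1.45 to 1.96 CPM with non-specific siRNA and to 2.45 to 4.66 CPM with paxillin siRNA. Of these, *LYZ* was at 0.242 to 0.536 and 0.673 to 1.08 CPM, and *CD74* at 0.143 to 0.346 and 0.377 to 2.02 CPM. *CD74* passed the low-count filter only through the paxillin siRNA libraries. The 5 endothelial markers summed to 78.1 to 115 and 136 to 149 CPM, nearly all of it from *KDR*, while *CDH5* was at or below 0.108 CPM. Those of fibroblasts (58.9 to 128 and 65.6 to 129 CPM) and urothelium (12.9 to 26.0 and 20.3 to 29.5 CPM) overlapped between the groups. The photoreceptor channel gene *CNGA1* was higher with paxillin siRNA (edgeR adjusted p = 0.0406).

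The transcript that stood out was *TSPAN1*, a tetraspanin of secretory epithelia (hg19, chromosome 1, 46640749 to 46651634). The RefSeq sequence of the 250 bases before the listed start is shown for both genes because *TSPAN1* and *TSPAN2* had the largest fitted fold changes of the tested members. *TSPAN2* is the weaker case. It passed the low-count filter only through the paxillin siRNA libraries, and it was called only with the replicate number as a block in the fit. That call was lost without replicate 1 or 2 of both groups (edgeR adjusted p = 0.163 and 0.057). Build GRCh38.p14 was used, which differs from that of the count table. Capitals mark any of 4 motifs searched on both strands: the core promoter box TATAAA, the GC box GGGCGG, the E-box CACCTG and the core of the interferon-stimulated response element.

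*TSPAN1* (chr1:46174837-46175086, plus strand): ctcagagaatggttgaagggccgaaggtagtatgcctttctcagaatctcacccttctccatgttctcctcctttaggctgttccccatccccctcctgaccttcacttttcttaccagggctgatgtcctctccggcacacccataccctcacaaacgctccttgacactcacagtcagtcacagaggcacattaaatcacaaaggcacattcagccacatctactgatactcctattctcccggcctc

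*TSPAN2* (chr1:115089504-115089753, minus strand): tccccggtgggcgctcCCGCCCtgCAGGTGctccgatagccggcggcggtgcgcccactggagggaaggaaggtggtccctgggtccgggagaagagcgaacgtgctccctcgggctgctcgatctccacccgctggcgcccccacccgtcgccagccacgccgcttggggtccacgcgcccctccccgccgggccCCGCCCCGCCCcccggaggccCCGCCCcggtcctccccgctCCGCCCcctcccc

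The *TSPAN1* window held none of the 4 motifs, and 51.2% of its bases were G or C. The *TSPAN2* window held 5 GC boxes, which begin 234, 54, 49, 33 and 13 bases before the start, and 1 E-box at 226 bases. The GC boxes at 54 and 49 bases overlap each other. Its G and C content was 79.2%, against a median of 58% over all 35116 windows. Of the 33 members, 25 had a RefSeq window. *CD37*, *CD81*, *CD151*, *TSPAN3*, *TSPAN7*, *TSPAN9*, *TSPAN18* and *TSPAN32* had none. A GC box lay in some window of 16 of the 25 members (64%), against 46.2% of all 27305 genes. An E-box lay in a window of 10 members (40%), against 20.6% of all genes. A gene was counted if any of its windows held the motif, so a gene with more windows had more chances. *CD63* had 8 windows, *TSPAN4* 5 and *CD9* 4, while the 27305 genes shared 35116 windows. The shares were not corrected for this. The TATAAA box lay in a window of 1 of the 25, against 13% of all genes. The interferon element was in 0 of the 25 members and in 3.71% of all genes. These matches describe letters in the windows and say nothing of binding.

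PC3 cells expressed a narrow set of tetraspanins at high level. Levels of different genes are compared here in FPKM, which corrects for transcript length and depth. *CD63*, the tetraspanin of late endosomes and exosomes, was at 183, 200.2 and 239 FPKM in replicates 1, 2 and 3 of the non-specific siRNA group. It was the highest of the family in both groups and ranked 87 among all genes with non-specific siRNA. *CD151*, which binds laminin-binding integrins, followed at 80.6, 73.7 and 101 FPKM. *CD81*, known from the B-cell co-receptor and as an entry factor of hepatitis C virus, was at 49.5, 48.9 and 70.0 FPKM. *CD9*, a partner of the immunoglobulin proteins IGSF8 and PTGFRN, was at 38.2, 38.6 and 59.7 FPKM. *TSPAN3* came next at 26.8, 19.0 and 45.2 FPKM. The ranges of *CD63* and *CD151* did not overlap each other or any lower member, whereas those of *CD81* and *CD9*, and of *CD9* and *TSPAN3*, did. These 5 genes made up 75.5% to 77.7% of the summed FPKM of the family in every library.

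A middle group followed. *TSPAN5*, *TSPAN4* and *TSPAN13* had nearly equal means of 21.9, 21.8 and 21.7 FPKM, and their ranges overlapped. *TSPAN15*, *TSPAN6*, *TSPAN17*, *TSPAN8*, *TSPAN31*, *TSPAN1*, *TSPAN12*, *TSPAN9*, *TSPAN33* and *ROM1* descended from 15.8 to 1.13 FPKM. *CD82*, first described as a metastasis suppressor of prostate cancer, averaged 0.797 FPKM in these cells and *TSPAN10* 0.648 FPKM. *CD37*, *UPK1B*, *TSPAN11* and *TSPAN2* passed the filter on low counts with means of 0.169 FPKM or less. With paxillin siRNA the first 5 places were unchanged, and *TSPAN1* moved from rank 14 to rank 7.

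**Figure D1:**
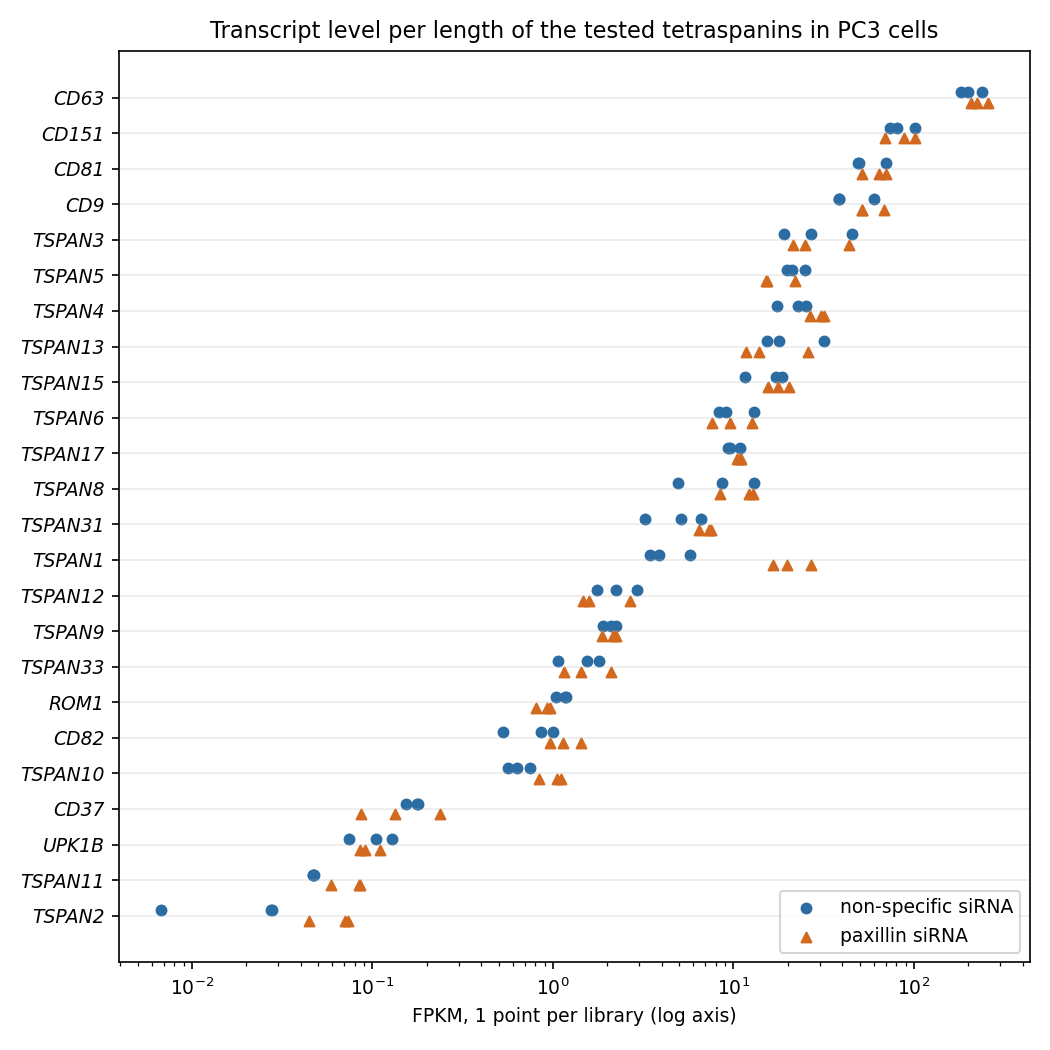
FPKM (log axis) of the 24 tested tetraspanins, ordered by their mean with non-specific siRNA, with 1 point for each of 3 libraries per group (circles, non-specific siRNA; triangles, paxillin siRNA). *CD63* is at the top near 200 FPKM, and *TSPAN1* shows the widest gap between circles and triangles among the genes above 1 FPKM.

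The remaining 9 members did not pass the low-count filter and were not tested in the fits with it. They are *CD53* of leukocytes, *PRPH2* of photoreceptor discs, *UPK1A* of the bladder lining, and *TSPAN7*, *TSPAN14*, *TSPAN16*, *TSPAN18*, *TSPAN19* and *TSPAN32*. Each had 9 or fewer recovered reads in every library. *TSPAN14*, an ADAM10 partner, had 4, 4 and 3 reads in the control group and 3, 4 and 3 under paxillin siRNA. *UPK1A* had 4, 1 and 0 reads in the control group and 8, 6 and 3 under paxillin siRNA, which is too few for a fold. A count of 3 reads corresponds to 0.0898 to 0.142 CPM in these libraries, a floor for counting error only.

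*TSPAN1* rose about 5-fold when paxillin was reduced. Replicates 1, 2 and 3 of the control group measured 18.1, 16.1 and 25.7 CPM. Their counterparts under paxillin siRNA measured 132, 98.7 and 77.4 CPM. All paxillin siRNA libraries lay above all non-specific ones, and the lowest of the former was about 3-fold above the highest of the latter. The means were 19.9 ± 5.09 and 103 ± 27.7 CPM (SD, n = 3), a log2 fold change of 2.37 ± 0.25 (SE; edgeR adjusted p = 0.0173). By replicate number the rise was 7.33-fold, 6.15-fold and 3.01-fold, so replicate 3 gave the smallest step, the pair in which *PXN* also stayed highest. Whether the 2 observations are linked was not tested. For this gene on its own the two-sided exact permutation p was 0.1, and groups of 3 cannot reach a smaller one. In FPKM the share of *TSPAN1* in the family went from 0.697% to 0.849% with non-specific siRNA to 2.34% to 4.43% with paxillin siRNA.

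The *TSPAN1* call depended on which libraries entered the fit, while its log2 fold change stayed between 2.04 and 2.75 in all alternatives. With the replicate number as a block the log2 fold change was 2.36 ± 0.21 (adjusted p = 2.25e-05). It also passed in the blocked fit without replicate 1, 2 or 3 of both groups (adjusted p = 0.00179, 0.000304 and 3.56e-12). Without the block, the adjusted p was 0.186 and 0.0766 when non-specific siRNA replicate 1 or 2 was left out and 0.0861 and 0.0675 when paxillin siRNA replicate 1 or 2 was. The log2 fold change in these 4 fits was 2.28, 2.23, 2.14 and 2.39. Of all genes in the table, 0, 0, 2 and 8 were called in the same 4 fits, against 188 with all 6 libraries.

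Among the 24 members tested, *TSPAN1* was the only one called without the block, that is 1 higher and 0 lower. That is 4.17% of the members higher, where 0.882% of all 15876 genes tested were higher and 1.18% were called in either direction. An unadjusted p under 0.05 was reached by 6 of the 24 members, a share near the 22.5% of all genes. DESeq2 called 2 of the 24 higher, *TSPAN1* and *TSPAN4*, where it called 4.93% of all genes higher and 10% in either direction. With the replicate block 8 members were higher and 0 lower. That is 33.3% higher, against 11.7% of all genes higher and 10.7% lower in that fit. The 8 were *TSPAN1*, *TSPAN2*, *TSPAN10*, *CD82*, *TSPAN31*, *TSPAN4*, *TSPAN8* and *CD9*. Their number was 1 (*TSPAN1*) in the blocked fit without replicate 1 or without replicate 2 of both groups. It was 9 without replicate 3, with *TSPAN11* added.

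**Figure D2:**
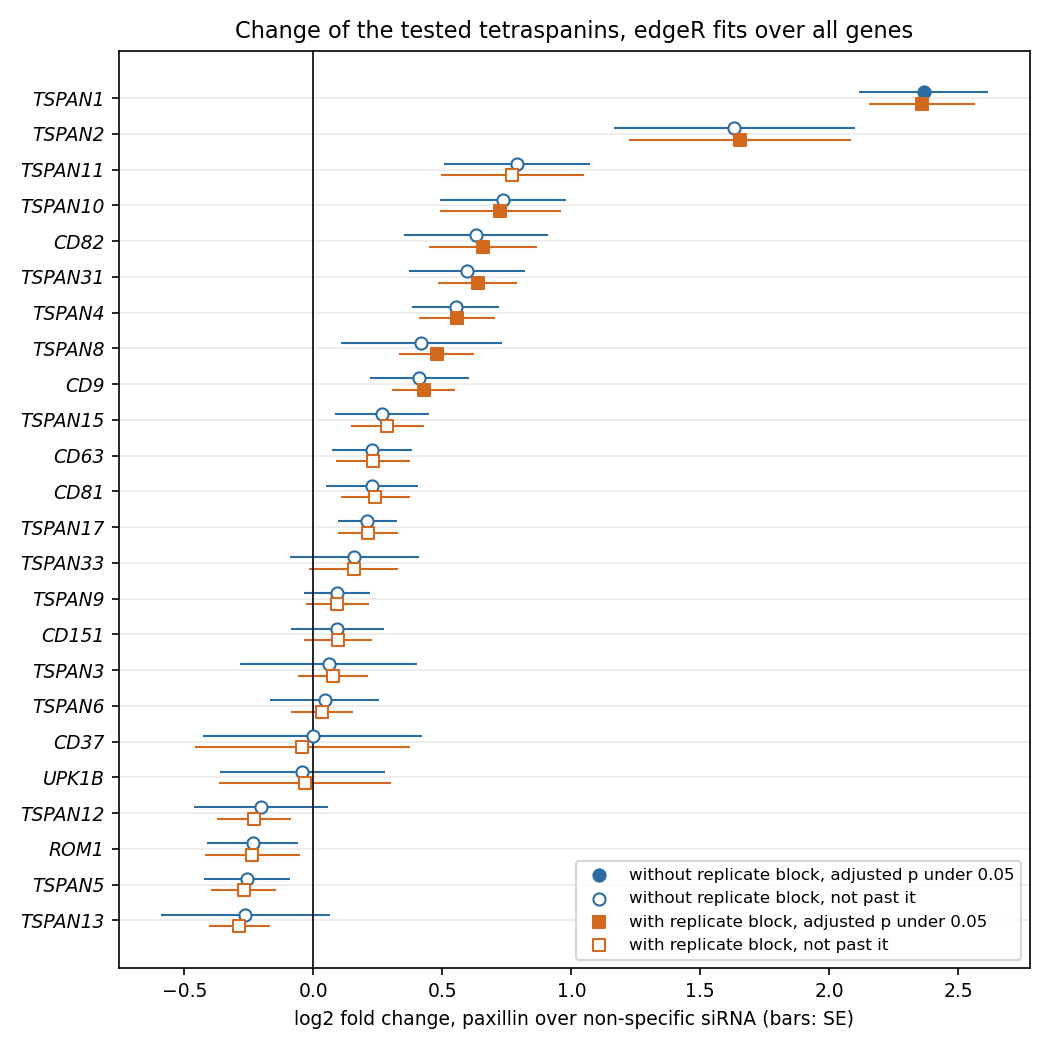
Log2 fold change (paxillin over non-specific siRNA) with its SE for the 24 tested tetraspanins, from the edgeR fit without (circles) and with (squares) the replicate block. Filled symbols passed an adjusted p of 0.05. *TSPAN1* is filled in both fits at 2.37 and 2.36, and the other 7 filled squares lie between 0.43 and 1.66.

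The median log2 fold change of the 24 tested members was 0.22, against 0.00 over all genes tested, and 18 of them had a positive value (75%, against 50.2% of all genes). For 8 members every paxillin siRNA library exceeded every control library (33.3%, against 13.6% of all genes). *TSPAN2* is among these 8 and passed the low-count filter only through the paxillin siRNA libraries. Its separation was thus close to fixed by being kept, and it also enters the median and the positive share. *CD82*, *TSPAN17* and *TSPAN31*, also among the 8, were separate in CPM but overlapped in FPKM. The reverse held for *ROM1* alone (4.17%, against 14.7%). For all genes together, 28.3% had separate groups in either direction. In all 3 numbered pairs 13 members were higher and 4 lower, where the shares over all genes were 29.2% and 28.7%. The medians of the members in pairs 1, 2 and 3 were 0.41, 0.23 and 0.12.

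Of the 7 members known from the plasma membrane and from integrin complexes, 5 were higher with the replicate block (background 11.7%) and 0 without it (background 0.882%). This grouping was made with earlier results of these data known, so its share is a description and no independent test. One of the 5 is *TSPAN2*, and all 5 lost the call in the blocked fits without replicate 1 or without replicate 2 of both groups. *CD9* was at 119, 122 and 178 CPM with non-specific siRNA and at 172, 172 and 214 CPM with paxillin siRNA. The groups overlapped, but each library was above its numbered partner, and the blocked fit gave a log2 fold change of 0.43 ± 0.12 (SE; edgeR adjusted p = 0.027, against 0.254 without the block). *TSPAN4*, which marks the migration-linked vesicles called migrasomes, was at 58.7, 72.2 and 82.0 CPM and then at 107, 117 and 88.0 CPM. Its groups did not overlap, and replicate 3 moved least, 1.07-fold against 1.83-fold and 1.62-fold in replicates 1 and 2. The log2 fold change was 0.55 ± 0.17 (SE; edgeR adjusted p = 0.118, and 0.0192 with the block). *CD82* was at 4.02, 2.40 and 4.60 CPM and then at 6.81, 4.94 and 5.31 CPM. These groups were separate in CPM but touched in FPKM, where the lowest paxillin siRNA library was at 0.969 and the highest non-specific one at 1.00. The log2 fold change was 0.63 ± 0.28 (SE; edgeR adjusted p = 0.23, and 0.041 with the block).

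*TSPAN8*, a tetraspanin of the gut lining that is studied on tumour vesicles, was at 23.9, 14.3 and 34.5 CPM with non-specific siRNA. It was at 36.4, 24.1 and 36.7 CPM with paxillin siRNA. The groups overlapped, with replicate 2 the lowest of both, and the adjusted p was 0.457 without and 0.0335 with the block (edgeR). *TSPAN2*, best known from myelinating glia, had only 2, 8 and 5 recovered reads in the control group and 14, 20 and 15 under paxillin siRNA. Its log2 fold change was 1.63 ± 0.47 (SE; edgeR adjusted p = 0.107, and 0.0172 with the block). To be tested at all it had to differ, and its count among the 8 carries that limit.

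*CD151* and *CD81*, the 2 other members of this kind, had high levels and small differences. *CD151* was at 345, 304 and 423 CPM and then at 391, 322 and 430 CPM, a log2 fold change of 0.09 ± 0.18 (SE; edgeR adjusted p = 0.797). Its range with paxillin siRNA lay almost within that of the other group. *CD81* was at 179, 171 and 246 CPM and then at 243, 204 and 250 CPM, a log2 fold change of 0.23 ± 0.18 (SE; edgeR adjusted p = 0.482). Neither passed with the block (adjusted p = 0.647 and 0.213). *CD151* and *TSPAN4* are neighbours on chromosome 11, 3988 bases apart, and the 1 with the blocked call was *TSPAN4*; the difference between their changes was not tested.

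**Figure D3:**
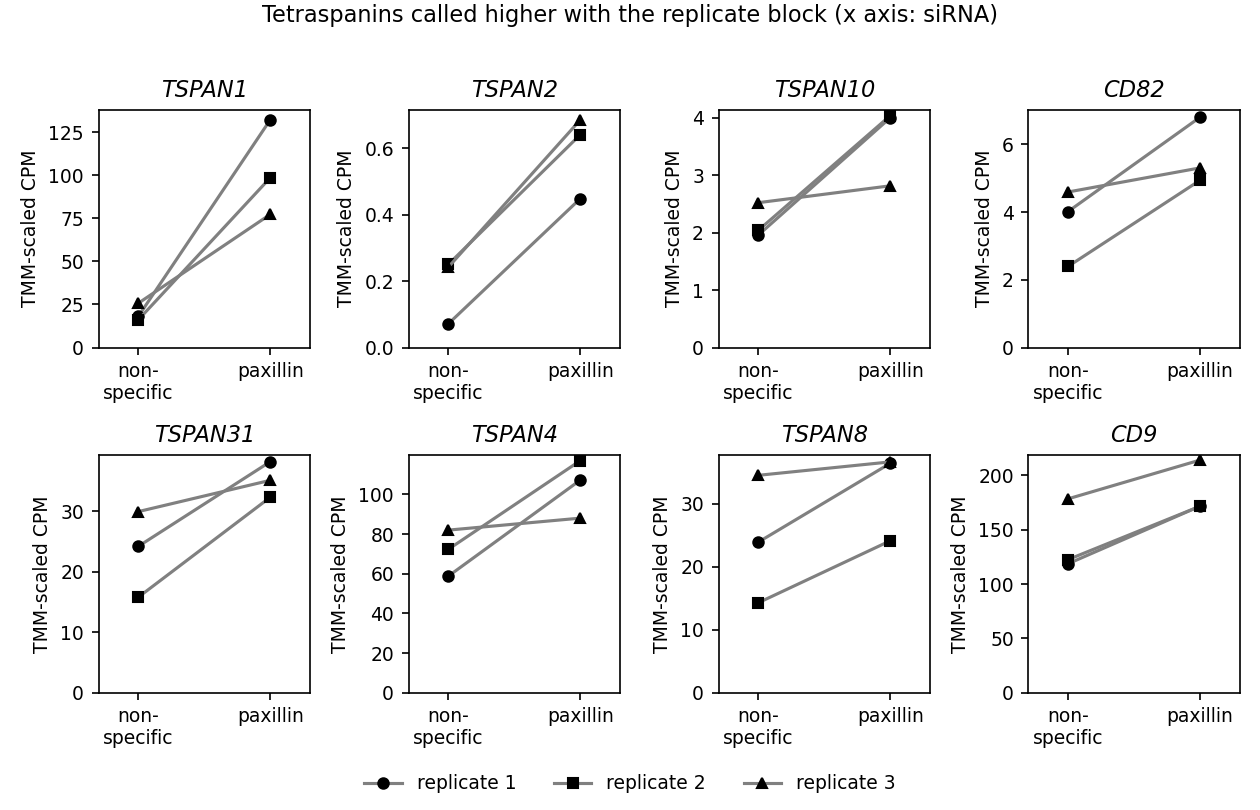
TMM-scaled CPM of the 8 tetraspanins that were higher with the replicate block, 1 line for each numbered pair of libraries from non-specific to paxillin siRNA. Every line goes up, and replicate 3 (triangles) has the smallest fold for all of them except *TSPAN2*.

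The members that work mainly in endosomes and on vesicles were not called in either fit. *CD63* was at 466, 507 and 592 CPM with non-specific siRNA and at 604, 565 and 662 CPM with paxillin siRNA. Each library was above its numbered partner, but the groups overlapped, and the log2 fold change was 0.23 ± 0.15 (SE; edgeR adjusted p = 0.417, and 0.27 with the block). *TSPAN3* was at 332, 243 and 542 CPM and then at 331, 281 and 552 CPM. The values followed the replicate number far more than the siRNA, and the log2 fold change was 0.06 ± 0.34 (SE; edgeR adjusted p = 0.937). *TSPAN6* was at 48.3, 47.0 and 65.6 CPM and then at 54.9, 41.9 and 69.0 CPM (edgeR adjusted p = 0.921).

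The TspanC8 members escort the protease ADAM10 out of the endoplasmic reticulum and influence which substrates it cuts. Of 5 tested, 1 was higher with the block, where 11.7% of all genes were, so this count says nothing particular of the group. This was *TSPAN10*, named oculospanin after the eye, at 1.96, 2.04 and 2.52 CPM and then at 4.00, 4.04 and 2.82 CPM. The groups were separate, and replicate 3 moved 1.12-fold against 2.05-fold and 1.98-fold in the other two (edgeR adjusted p = 0.139, and 0.0445 with the block). *TSPAN5*, the most abundant of them in CPM, was at 203, 196 and 230 CPM and then at 158, 154 and 214 CPM. It was lower in all 3 pairs, at a log2 fold change of -0.26 ± 0.17 (SE; edgeR adjusted p = 0.393, and 0.144 with the block). *TSPAN15* was at 54.5, 79.3 and 84.9 CPM and then at 88.2, 79.2 and 95.8 CPM (edgeR adjusted p = 0.419). *TSPAN17* was at 69.6, 79.4 and 69.0 CPM and then at 85.5, 84.7 and 81.9 CPM, with the groups apart by a small margin in CPM and overlapping in FPKM (edgeR adjusted p = 0.323). *TSPAN33* was at 8.82 to 14.4 CPM and then at 10.3 to 17.2 CPM. *ADAM10* itself was at 56.2, 53.1 and 69.2 CPM and then at 55.8, 62.4 and 74.5 CPM (edgeR adjusted p = 0.713).

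*TSPAN31* lies at a locus that is listed for *CDK4* as well (hg19, chromosome 12, 58138784 to 58146230), and the sources used here do not say whether reads were assigned by strand. It was at 24.2, 15.8 and 29.9 CPM and then at 38.2, 32.3 and 35.1 CPM. The groups did not overlap in CPM, though in FPKM paxillin siRNA replicate 2 (6.45) was just below non-specific siRNA replicate 3 (6.59). The log2 fold change was 0.60 ± 0.22 (SE; edgeR adjusted p = 0.174, and 0.0117 with the block). *CDK4*, the G1 kinase, had the opposite sign, at 83.7, 105 and 72.3 CPM and then at 61.4, 61.4 and 65.7 CPM (edgeR adjusted p = 0.137, and 0.0323 with the block). Reads from the shared stretch may belong to either gene.

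*TSPAN13* was at 83.2, 75.6 and 140 CPM and then at 70.0, 56.7 and 122 CPM. It was lower in all 3 pairs, yet replicate 3 of both groups was far above the other libraries, and it did not pass (edgeR adjusted p = 0.668, and 0.0983 with the block). *TSPAN9*, known from platelets, was at 27.3, 24.2 and 28.0 CPM and then at 30.7, 26.3 and 27.7 CPM (edgeR adjusted p = 0.701). *TSPAN12*, which assists Norrin signalling through FZD4 in retinal vessels, was at 15.8, 13.2 and 20.01 CPM and then at 12.1, 10.8 and 19.6 CPM (edgeR adjusted p = 0.677). *TSPAN11* was at 0.853 to 0.864 CPM and then at 1.08 to 1.70 CPM (edgeR adjusted p = 0.16, and 0.0634 with the block).

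Members of other tissues stayed low. *ROM1*, a photoreceptor disc protein whose locus is shared with *EML3*, was at 5.41, 5.83 and 6.01 CPM and then at 5.31, 4.57 and 4.77 CPM. All 3 libraries were below those of the other group by a small margin (edgeR adjusted p = 0.458). *CD37* of leukocytes, listed at the locus of *TEAD2*, was at 0.262 to 0.717 CPM over all 6 libraries and *UPK1B* of the bladder lining at 0.465 to 0.782 CPM. Their adjusted p was 0.998 and 0.951 (edgeR).

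Replicate 3 was often the highest library of its group. With non-specific siRNA it was highest for 21 of the 24 tested members (87.5%), against 33.8% of all genes. With paxillin siRNA it was highest for 14 (58.3%), against 44.1%. It was highest in both groups for 12 members (50%), against 23.1%. The summed CPM of the 33 members was 2090, 2006 and 2820 in control replicates 1, 2 and 3 and 2587, 2297 and 3009 in the paxillin siRNA libraries. Each paxillin siRNA library was thus above its numbered partner, and the groups overlapped through non-specific siRNA replicate 3.

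Partner proteins of tetraspanins formed the next group, 27 genes of which 26 were tested. This list, and those of vesicle machinery and ADAM10 substrates below, were chosen with earlier results of these data known. Without the block 2 were higher and 0 lower (background 0.882% and 0.302%). With the block 5 were higher and 2 lower (background 11.7% and 10.7%). The median log2 fold change was -0.02. *IGSF8*, the main immunoglobulin partner of CD9 and CD81, was at 25.6, 26.8 and 39.8 CPM and then at 58.4, 56.0 and 51.3 CPM. The groups were separate, at a log2 fold change of 0.85 ± 0.18 (SE; edgeR adjusted p = 0.068, and 0.00272 with the block). *PTGFRN*, the other such partner, was at 6.05, 4.83 and 4.73 CPM and then at 6.99, 5.36 and 4.01 CPM (edgeR adjusted p = 0.895).

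Of the integrin chains in the list that form laminin receptors with CD151, *ITGB4* alone was called, and only with the block. Differences between the chains were not tested. *ITGB4*, the beta chain of hemidesmosomes, was at 221, 114 and 279 CPM with non-specific siRNA and at 434.5, 387 and 452 CPM with paxillin siRNA. Its groups were separate, at a log2 fold change of 1.05 ± 0.30 (SE; edgeR adjusted p = 0.104, and 0.00168 with the block). *ITGA6*, the alpha chain that joins it, was at 394, 336 and 419 CPM and then at 303, 264 and 411 CPM (edgeR adjusted p = 0.506). *ITGA3* was at 688, 780 and 614 CPM and then at 841, 1114 and 708 CPM, higher in all 3 pairs (edgeR adjusted p = 0.338, and 0.133 with the block). *ITGA7* was at 9.16 to 13.7 CPM and then at 10.1 to 14.2 CPM (edgeR adjusted p = 0.956). *ITGB1*, the common beta chain, was at 1894, 2160 and 2214 CPM and then at 1828, 1934 and 2323 CPM (edgeR adjusted p = 0.908).

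The 2 partners that rose without the block were *EPCAM* and *IFITM1*. *EPCAM*, an epithelial adhesion molecule found with tetraspanins and claudin 7, was at 7.54, 6.83 and 5.91 CPM and then at 76.8, 58.6 and 22.4 CPM (edgeR adjusted p = 0.0337). As with *TSPAN1*, replicate 3 of the paxillin siRNA group was the lowest of its 3. *IFITM1*, an interferon-induced protein found next to CD81, was at 73.7, 93.3 and 81.3 CPM and then at 352, 571 and 272 CPM (edgeR adjusted p = 0.0252). *CLDN7* was at 1.81, 1.11 and 1.00 CPM and then at 5.01, 4.30 and 1.81 CPM, which passed with the block only (edgeR adjusted p = 0.00249). Among these 3 genes each paxillin siRNA library was above its numbered partner. Lower with the block were *FZD4* and *CLDN1*. *FZD4*, a Wnt and Norrin receptor, was at 278, 206 and 246 CPM and then at 97.7, 100.4 and 152 CPM, with the groups separate (edgeR adjusted p = 0.0566, and 0.000828 with the block). *CLDN1*, a tight junction claudin that binds CD81, was at 22.8, 16.8 and 52.5 CPM and then at 15.7, 9.81 and 32.4 CPM. Its groups overlapped, with replicate 3 the highest of both (edgeR adjusted p = 0.476, and 0.00353 with the block). The number of partners called without the block was 0 when non-specific siRNA replicate 1 or 2 or paxillin siRNA replicate 1 was left out. It was 1 higher without non-specific siRNA replicate 3 or paxillin siRNA replicate 2, and 5 higher and 1 lower without paxillin siRNA replicate 3. With the block it was 3 higher and 2 lower, 5 and 2, and 6 and 4 without replicate 1, 2 and 3 of both groups.

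**Figure D4:**
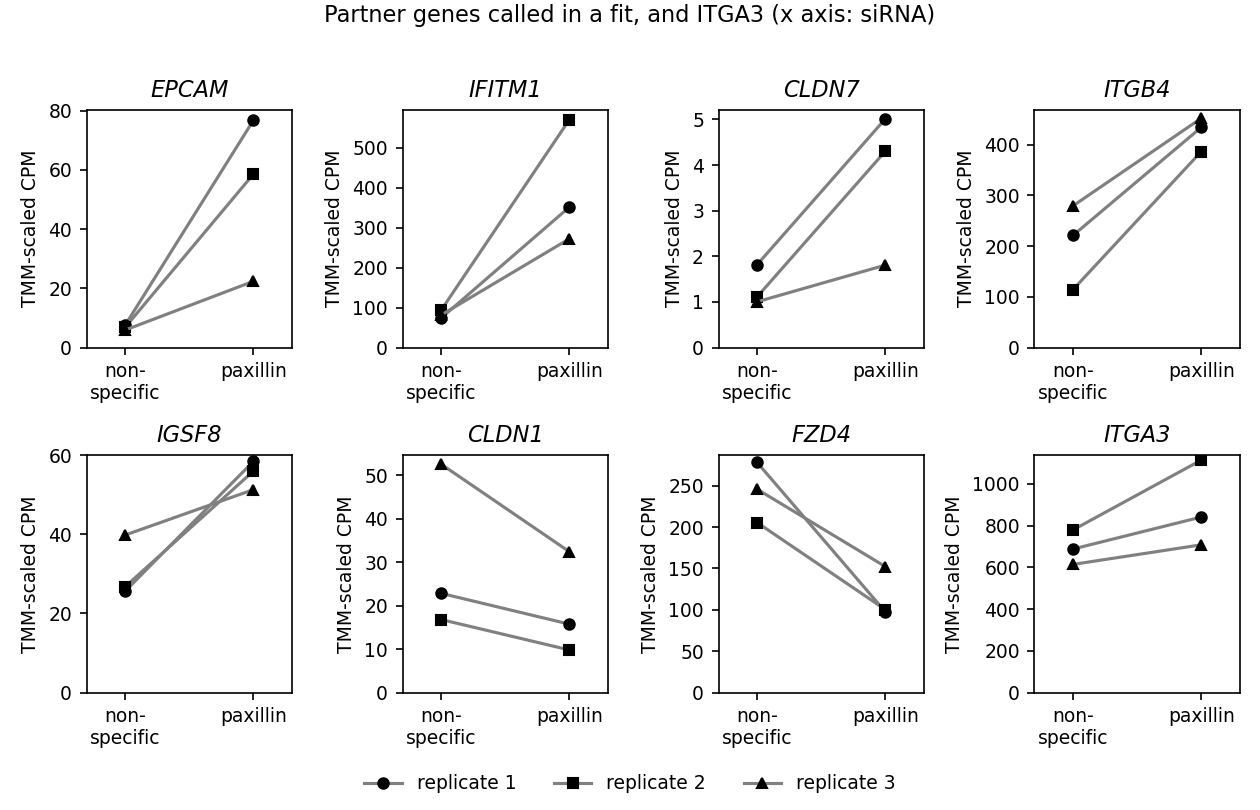
TMM-scaled CPM of the 7 tetraspanin partners that were called with the replicate block, and of *ITGA3*, 1 line for each numbered pair of libraries. *EPCAM*, *IFITM1*, *CLDN7*, *ITGB4* and *IGSF8* go up in every pair, while *CLDN1* and *FZD4* go down.

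The machinery that forms and releases vesicles was called in neither direction without the block. That is 0 of 22 genes by edgeR, with 4 at an unadjusted p under 0.05, a share below the 22.5% of all genes. DESeq2 called 1 of them lower, where it called 5.11% of all genes lower. With the block 4 were lower and 0 higher (background 10.7% and 11.7%). *RAB27A*, which docks vesicles at the plasma membrane, was at 8.68, 12.4 and 10.8 CPM and then at 5.72, 4.26 and 7.91 CPM, with the groups separate (edgeR adjusted p = 0.0151 with the block). *HSPA8*, a chaperone carried by exosomes, was at 1124, 1828 and 1331 CPM and then at 644, 786 and 1217 CPM (edgeR adjusted p = 0.0258 with the block). *LAMP1*, of lysosomes and late endosomes, was at 210.3, 265 and 263 CPM and then at 138, 118 and 215 CPM (edgeR adjusted p = 0.0108 with the block). For *HSPA8* and *LAMP1* the groups overlapped through paxillin siRNA replicate 3. *HGS*, which sorts cargo on endosomes, was at 133, 131 and 84.7 CPM and then at 103, 102 and 66.0 CPM, lowest in replicate 3 of both groups and overlapping (edgeR adjusted p = 0.0376 with the block). The number lower with the block was 0 without replicate 1 or 2 of both groups and 5 without replicate 3. The median log2 fold change of the 22 was -0.12.

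Of 14 tested substrates of ADAM10, 1 was higher without the block, *CDH1*, which encodes E-cadherin, at 13.2 ± 6.1 and 51.5 ± 12.6 CPM (SD, n = 3; edgeR adjusted p = 0.0496). With the block *CDH1* and *ERBB2* were higher, near the background of 11.7%, and *APP*, *AXL* and *L1CAM* were lower, where the background was 10.7%. *APP*, the amyloid precursor, was at 2662, 2060 and 4241 CPM and then at 687, 624 and 1608 CPM, with the groups separate (edgeR adjusted p = 0.0922, and 0.000135 with the block). The call of *CDH1* ended in 5 of the 6 fits that left out 1 library without the block. With the block, 1 higher and 1 lower were left without replicate 1 of both groups, 1 and 2 without replicate 2, and 3 and 3 without replicate 3.

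The L6 proteins cross the membrane like tetraspanins but belong to another family. None of their 3 tested genes was called in either fit, and no unadjusted p was under 0.05. *TM4SF1* was at 810 ± 58.4 and 835 ± 164 CPM (SD, n = 3; edgeR adjusted p = 0.911).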

How the data were processed

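Messenger RNA of 6 PC3 libraries was sequenced (RNeasy Plus Mini and TruSeq kits, per the labels' protocols). The deposited table holds estimated counts and FPKM values per gene, which the authors made with Cufflinks 2.0.2 on hg19, per the submitters' processing notes. The sources used here name no aligner and no gene models, and give no strand setting. Confidence bounds of FPKM were not used. The estimated counts were rounded to whole numbers. They are not single reads: 90.8% to 91.7% of values were whole multiples (tolerance 0.05 reads) of a step of 0.824 to 1.37 counts per library, and this step gave the recovered reads. Low values are limited by counting error. An SD is the spread among the 3 libraries of a group, and the SE of a log2 fold change comes from the edgeR fit, which includes that spread.

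All 23285 genes entered filterByExpr, 15876 were kept, and edgeR 4.0.16 (R 4.3.3; TMM factors, quasi-likelihood test, two-sided, Benjamini-Hochberg over all kept genes, threshold 0.05) compared paxillin with non-specific siRNA. The replicate number was not in this fit. Same-numbered libraries deviated together from their group means (correlations 0.34, 0.43 and 0.56, against -0.48 to 0.11 for other numbers). A second fit therefore had the replicate number as a block. Deviations from a mean cancel out within a group, so positive values for same numbers push those for other numbers down. Alternatives were RLE factors, counts rescaled to single reads, no low-count filter, DESeq2 1.42.0, limma 3.58.1 (voom, or log2(FPKM + 1) and log2(FPKM + 0.1)), and leaving out each library. The blocked fit without each replicate number was added after seeing the data. The edgeR steps of the fit without the block were tested on simulated data that held no replicate effect. The blocked fit was not tested in this way.

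Members given in every library were those called in either fit, those averaging at least 20 CPM, and *CD9*, *CD63*, *CD81*, *CD82* and *CD151*. The members and gene lists were chosen with earlier results of these data known.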

Additional observations from a re-analysis of the deposited data

How the results depend on the processing

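No tetraspanin was called lower in any setting, and 1 was called higher without the replicate block. The number called higher was 8 with the block, 2 by DESeq2 and 0 by limma on log2(FPKM + 1) without a filter, where no gene of the table was called. Leaving out 1 library gave 0 to 3, and the blocked fit without 1 replicate number gave 1 to 9. Over all genes, 188 were called without and 3561 with the block. The number was 303 with no low-count filter, 1595 by DESeq2, 33 by limma on log2(FPKM + 1), 63 on log2(FPKM + 0.1) and 0 on unfiltered FPKM. It ranged from 0 to 2440 without 1 library and was 455, 1336 and 4885 in the blocked fits without replicate number 1, 2 or 3. RLE factors, single-read scaling and voom gave 216, 220 and 147. The members' median log2 fold change of 0.22 was 0.0793 on log2(FPKM + 1), 0.0956 on log2(FPKM + 0.1), 0.0515 on unfiltered FPKM and 0.14 to 0.37 without 1 library. The median over all genes moved as well, to -0.0791, -0.097 and -0.00404 in the FPKM fits in that order, from 0.00178. The filtered FPKM fits held 18 members in place of 24. *TSPAN1* was called higher in 13 of 18 alternatives and had a log2 fold change of 2.04 to 2.75 in all of them. *CD151*, *TSPAN3*, *TSPAN6* and *TSPAN13*, none of them called, changed sign in some. The 9 members under the filter had 9 or fewer reads per library, and none of them was called in the fit without the filter.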

Other observations

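*TSPAN14*, known as a widely expressed ADAM10 partner, was listed at 0.00826 FPKM on average with non-specific siRNA, and the genes beside it on chromosome 10 were low too. In hg19 order, *ANXA11* was at 45.1 FPKM, *DYDC2* at 0.0159, *C10orf58* at 0.0158, *SH2D4B* at 0.00268, *NRG3* at 0.0079 and *GHITM* at 18.1 FPKM. *C10orf58* lies before *TSPAN14* (chromosome 10, 82214038 to 82282391) and *SH2D4B* after it. The genes listed between *DYDC1* at 0.25 FPKM and *GHITM* were thus low. Low values were also found beyond *GHITM*, such as *C10orf99* at 0.0168 and *CDHR1* at 0.00266 FPKM, whereas *FAM190B* was at 1.64 FPKM. *GHITM* therefore does not mark the end of the low values, and their cause was not tested.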
